A study of Mus musculus with 6 samples.

Results

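Macrophages carry sets of surface receptors that restrain activation, and the transcripts of 9 genes of this system were followed in J774 cells with and without silencing of NCOA4. The genes are the sialic acid receptors Siglece, Cd33 and Siglec1, the inhibitory receptors Sirpa, Pirb, Pilra, Lair1 and Cd300a, and the phosphatase Ptpn6 on which such receptors draw. They were chosen by function from the 55487 genes in the files, with their TPM difference between the groups already known. Their levels are therefore given as a description, and no p-value is printed for any of them. Counts of members past a threshold appear only beside the share of all genes and are no test of them. NCOA4 siRNA libraries held 3.82 times the mean Siglece level of control libraries, 1.99 times the mean Cd33 level and 1.68 times the mean Pilra level. Siglec1 and Cd300a were higher by smaller amounts, Lair1 and Ptpn6 overlapped between the groups, Sirpa was slightly lower and Pirb was close to the limit of detection.

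J774 is a mouse macrophage cell line. Both groups received siRNA by liposome-mediated transfection, either a control siRNA (siControl, 3 libraries) or an siRNA against NCOA4, the cargo receptor that delivers ferritin to lysosomes for iron release (siNCOA4, 3 libraries). The replicates are labelled as biological replicates, and RNA was sequenced from stranded poly(A) libraries. All libraries come from 1 cell line and a single kind of silencing, and the time between transfection and RNA isolation is not given in the sources used here. Levels are TPM (transcripts per 1000000 transcripts), a measure scaled by gene length so that genes within a library can be set side by side.

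Inhibitory receptors of this kind carry an immunoreceptor tyrosine-based inhibitory motif (ITIM) in the part of the protein inside the cell. When a ligand is bound, Src family kinases phosphorylate the tyrosine of the motif, and the tyrosine phosphatases SHP-1 (Ptpn6) and SHP-2 (Ptpn11) or the lipid phosphatase SHIP-1 (Inpp5d) dock there and remove phosphates placed by activating receptors. Siglecs read sialic acid on neighbouring glycans, Sirpa reads CD47, Lair1 reads collagen and C1q, and several of the receptors are paired, meaning that a closely related gene encodes an activating partner that signals through the adaptors Tyrobp (DAP12) or Fcer1g.

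The 18 coding bases of 9 inhibitory motifs are shown, because the motif is what places most of these receptors in 1 group. Those of Pirb, which was close to the limit of detection, are not printed. The motif was sought in the principal GENCODE M21 transcript as isoleucine, leucine, valine or serine, any residue, tyrosine, any 2 residues, then isoleucine, leucine or valine, in the stretch after the most hydrophobic 19-residue window. Bases run 5′ to 3′ on the coding strand, and capitals mark the tyrosine codon.
Siglece motif: atacatTATgcgaccctc
Pilra motif: atcgtgTATgcttccatc
Cd300a first motif: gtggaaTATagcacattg
Cd300a second motif: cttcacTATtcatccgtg
Lair1 first motif: gtgacgTATatccagctg
Lair1 second motif: agcacaTATgcagccatc
Sirpa first motif: atcacaTACgcagacctg
Sirpa second motif: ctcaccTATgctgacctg
Sirpa last motif: tcagagTATgctagtgtc
All lie within coding exons of GRCm38 (mm10). The Siglece motif is at chr7:43651585-43651602 on the minus strand (tyrosine 432) and the Pilra motif at chr5:137823571-137823588 on the minus strand (tyrosine 267). Cd300a has its motifs at chr11:114899846-114899863 and chr11:114901147-114901164 on the plus strand (tyrosines 262 and 274). Lair1 has them at chr7:4009790-4009807 and chr7:4009703-4009720 on the minus strand (tyrosines 228 and 257). The 3 Sirpa motifs are at chr2:129629954-129629971, chr2:129630077-129630094 and chr2:129630149-129630166 on the plus strand (tyrosines 436, 477 and 501).

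The members differed in this feature. Pirb held 3 matches in a stretch of 179 residues, Sirpa 3 in 117, Cd300a 2 in 114, Lair1 2 in 100, Siglece 1 in 95 and Pilra 1 in 85. Cd33 had no match in its 66 residues and Siglec1 none in its 37, and each of these stretches holds 1 tyrosine. Ptpn6, a cytosolic enzyme of 595 residues, had no hydrophobic window of this strength. The pattern is loose: 2855 of 7292 protein-coding genes with such a window (39.2%) have at least 1 match after it, so a match describes the letters and not a working site. Set beside the expression differences described below, the log2 fold change was 1.65 and 0.74 in the receptors with 1 match (Siglece and Pilra), 0.36 and 0.11 in those with 2 (Cd300a and Lair1) and -0.09 in Sirpa with 3. It was 0.98 in Cd33 and 0.34 in Siglec1, which had none, so the 7 receptors did not fall in a single order. These changes were known when the genes were chosen, and a relation to the motif was not tested.

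The 6 libraries held between 15502155 and 18282129 reads on genes, rebuilt from the TPM steps, so 1 read on a gene of 2 kb is worth between 0.0825 and 0.0959 TPM. Ncoa4, the silenced gene, was 21.6 ± 1.57 TPM (SD, n = 3) in control and 9.04 ± 0.533 in NCOA4 siRNA libraries, a log2 fold change of -1.21 (SE 0.0767, limma with Benjamini-Hochberg adjustment, adjusted p = 0.00127). All 10 macrophage markers examined were above 0.5 TPM in every library, with a summed level of 8650 to 8841 TPM in control and 8981 to 9083 TPM in NCOA4 siRNA libraries. By limma, 5 of the 10 had an adjusted p under 0.05, beside 5.42% of all genes. Their log2 fold changes were 0.61 for Adgre1, 0.59 for Fcgr1, 0.48 for Mertk, 0.31 for Csf1r and -0.27 for Cd14. The others did not pass, with 0.22 for Ptprc, 0.18 for Itgam, 0.15 for Lyz2, 0.06 for Spi1 and -0.22 for Cd68. The part of these marker changes in the receptor values was not tested. In RNA from a whole culture, fewer cells that make a transcript and less of it per cell cannot be told apart. Markers of T cells summed to at most 0.0864 TPM, B cells to 0.534 and epithelial cells to 0.15 in any library. Neutrophil markers summed to 15.5 to 25.4 TPM. Most of this was S100a8, with group means of 22.6 TPM in control and 18.1 TPM in NCOA4 siRNA libraries. Elane was at most 1.05 TPM in any library, and Ly6g, S100a9 and Mpo were at 0. Erythroid, fibroblast and endothelial markers summed to at most 1.94, 1.06 and 1.57 TPM.

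Siglece and Cd33 are CD33-related Siglecs that have start sites 115.7 kb apart on chromosome 7 and were the members with the largest differences. Siglece (ENSMUSG00000030474, chr7:43651070-43660161, minus strand) encodes the main inhibitory Siglec of mouse myeloid cells. Its level was 1.22, 1.52 and 1.87 TPM in control replicates 1 to 3 and 6.89, 5.06 and 5.65 TPM in NCOA4 siRNA replicates 1 to 3. The lowest NCOA4 siRNA library thus stood well above the highest control library. Group means were 1.54 ± 0.322 and 5.87 ± 0.934 TPM (SD, n = 3), a log2 fold change of 1.65 (SE 0.17) on the log2(TPM + 0.5) scale, which understates changes of low genes. These values rest on few reads, 13 to 18 in control and 51 to 74 in NCOA4 siRNA libraries, and the log2 fold change ranged from 1.44 to 1.89 over 13 other ways of processing.

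Cd33 (ENSMUSG00000004609, chr7:43524216-43544428, minus strand) was a more abundant transcript, with 1407 to 3234 reads in a library. It stood at 33.7, 36.8 and 34.7 TPM in control and at 71.7, 71.5 and 66.2 TPM in NCOA4 siRNA replicates. The groups were far apart, and libraries within a group lay close together. Means of 35.1 ± 1.56 and 69.8 ± 3.10 TPM (SD, n = 3) gave a log2 fold change of 0.98 (SE 0.0536), between 0.92 and 1.02 under every alternative run.

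Siglec1 (ENSMUSG00000027322, chr2:131069220-131086765, minus strand) encodes sialoadhesin, a long adhesion receptor of resident macrophages that lacks an inhibitory motif. Control replicates were at 24.0, 24.8 and 24.4 TPM and NCOA4 siRNA replicates at 31.0, 32.0 and 30.4 TPM. The groups did not overlap, but the step between them was small, with means of 24.4 ± 0.409 and 31.1 ± 0.798 TPM (SD, n = 3) and a log2 fold change of 0.34 (SE 0.0451). Thus the 3 Siglecs were all higher after NCOA4 silencing while differing widely in size: a ratio of means of 3.82 for the rarest, Siglece, 1.99 for Cd33 and 1.27 for Siglec1.

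**Figure D1:**
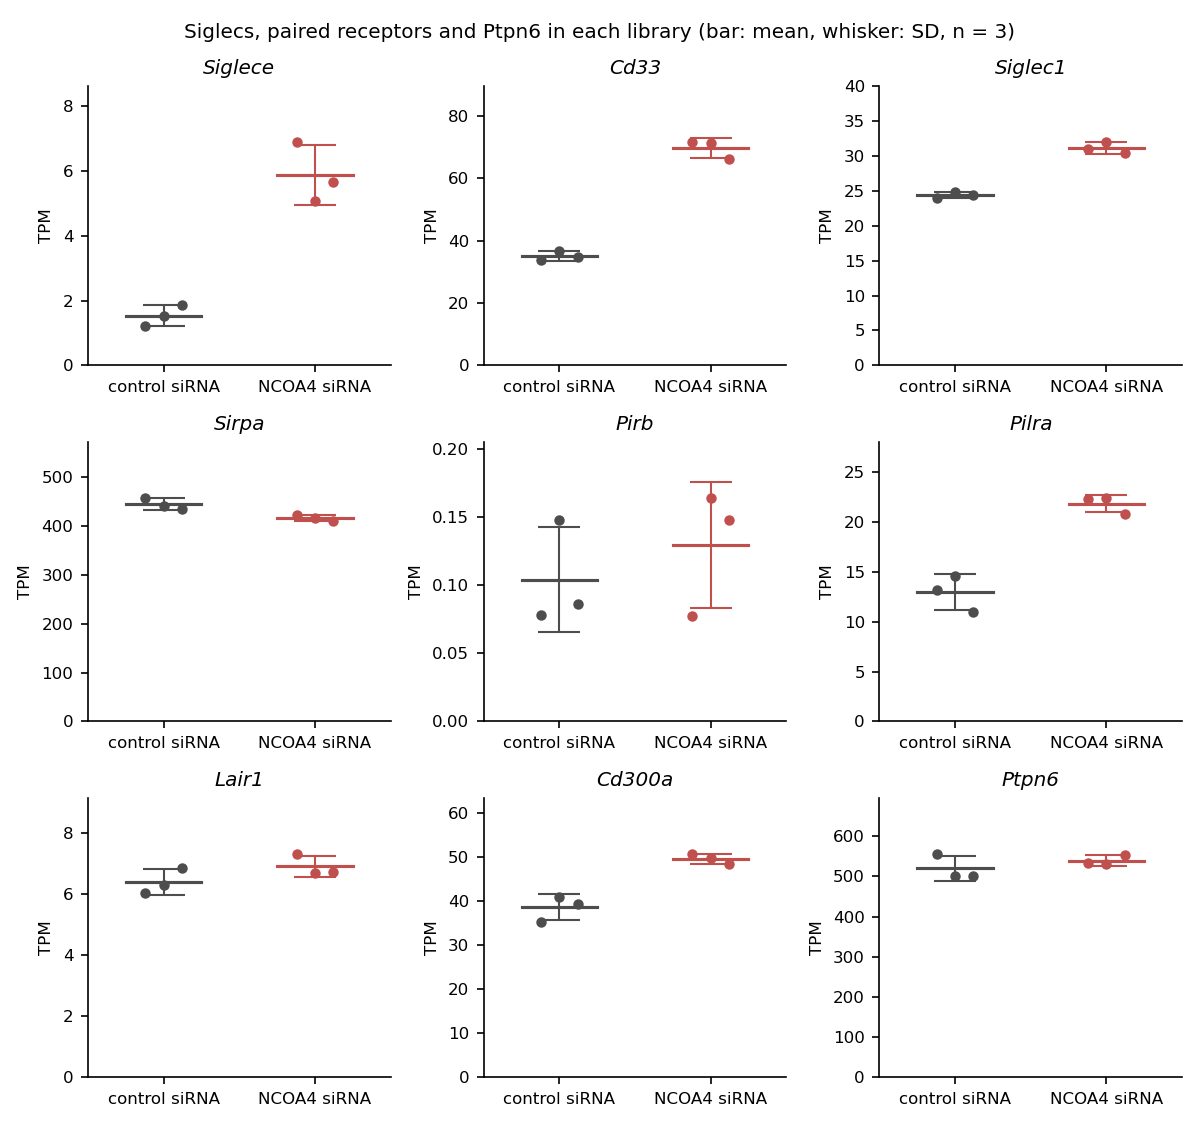
TPM of the 9 genes in each control siRNA and NCOA4 siRNA library, 1 panel per gene on its own linear axis from 0, with bars for group means and whiskers for SD (n = 3). Siglece, Cd33, Siglec1, Pilra and Cd300a show 2 separate groups with NCOA4 siRNA higher, while Lair1 and Ptpn6 overlap and Pirb stays under 0.2 TPM.

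Pilra (ENSMUSG00000046245, chr5:137821952-137836281, minus strand) encodes the inhibitory member of the paired immunoglobulin-like type 2 receptors, which bind sialylated O-glycoproteins. It was measured at 13.2, 14.6 and 11.0 TPM in control and 22.3, 22.4 and 20.8 TPM in NCOA4 siRNA replicates. Every NCOA4 siRNA library was above every control library. Means were 13.0 ± 1.78 and 21.8 ± 0.933 TPM (SD, n = 3), a log2 fold change of 0.74 (SE 0.102). The gene overlaps Zcwpw1 on the other strand, which was at 1.48 and 1.38 TPM in the group means, and 0.67% of its 100-base windows are shared with Pilrb1.

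Cd300a (ENSMUSG00000034652, chr11:114890041-114904654, plus strand) encodes an inhibitory receptor for phosphatidylserine and phosphatidylethanolamine on dying cells. Its TPM was 35.3, 41.0 and 39.4 in control and 50.7, 49.7 and 48.4 in NCOA4 siRNA replicates. The groups were separate, with control replicate 1 the lowest of the 6 libraries. Means were 38.5 ± 2.93 and 49.6 ± 1.17 TPM (SD, n = 3), a log2 fold change of 0.36 (SE 0.0626).

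Lair1 (ENSMUSG00000055541, chr7:4003402-4063204, minus strand) encodes the leukocyte receptor for collagens. Values of 6.03, 6.31 and 6.85 TPM in control and 7.32, 6.70 and 6.74 TPM in NCOA4 siRNA replicates overlapped. The log2 fold change was 0.11 (SE 0.0836), and it ranged from 0.03 to 0.15 over the alternatives.

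Sirpa (ENSMUSG00000037902, chr2:129592835-129632228, plus strand) encodes the receptor for the "do not eat me" signal CD47. With 457, 441 and 434 TPM in control and 423, 415 and 410 TPM in NCOA4 siRNA replicates, it was the most abundant of the receptors. All 3 NCOA4 siRNA libraries were below the controls, by a narrow margin. Means were 444 ± 11.4 and 416 ± 6.42 TPM (SD, n = 3), a log2 fold change of -0.09 (SE 0.0369), negative under each alternative run (-0.15 to -0.05).

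Pirb (ENSMUSG00000058818, chr7:3711409-3720391, minus strand) encodes the inhibitory paired immunoglobulin-like receptor, which binds MHC class I. It gave 2, 4 and 2 reads in control and 2, 4 and 4 reads in NCOA4 siRNA libraries, between 0.0770 and 0.164 TPM. No difference could be detected at this depth and no fold is given. In addition, 20.7% of its 100-base windows are shared with near-identical genes such as Pira2 and Gm14548, so reads may be split between copies or dropped.

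Ptpn6 (ENSMUSG00000004266, chr6:124720707-124738714, minus strand) encodes SHP-1, the phosphatase that docks on these motifs, and it was the most abundant of the 9 transcripts. It was at 556, 502 and 502 TPM in control and 533, 531 and 554 TPM in NCOA4 siRNA replicates. The highest value was in a control library, and the groups overlapped. The log2 fold change was 0.05 (SE 0.0517), and it was -0.00407 with median-centred libraries.

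Of the 9 genes, 8 reached the mean of 0.5 TPM required for the fit. Their median log2 fold change was 0.35, beside 0.03 over all 13829 genes tested. By limma with Benjamini-Hochberg adjustment, 5 of them (Siglece, Cd33, Siglec1, Pilra and Cd300a) had an adjusted p under 0.05 with a higher level, beside 5.42% of all genes (3.11% higher and 2.31% lower). When a fold change above 1.5 was also required, 3 remained (Siglece, Cd33 and Pilra), beside 1.18% of all genes (0.861% higher and 0.318% lower). Of all called genes 73.0% were higher, a share that was 60.7% with median-centred libraries and 61.9% after quantile scaling. The groups did not overlap for 6 of the 8 (5 higher, 1 lower), as for 28.4% of all genes (16.6% higher, 11.8% lower). Since these values were known when the genes were chosen, the counts describe the choice and nothing is read from them. The count of 5 was 4 without control replicate 3 and 2 (Siglece and Cd33) without NCOA4 siRNA replicate 1, 2 or 3. The count of 3 was 2 when NCOA4 siRNA replicate 1, 2 or 3 was left out, with Pilra the gene lost, and 2 with a minimum mean of 5 TPM, which removed Siglece.

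**Figure D2:**
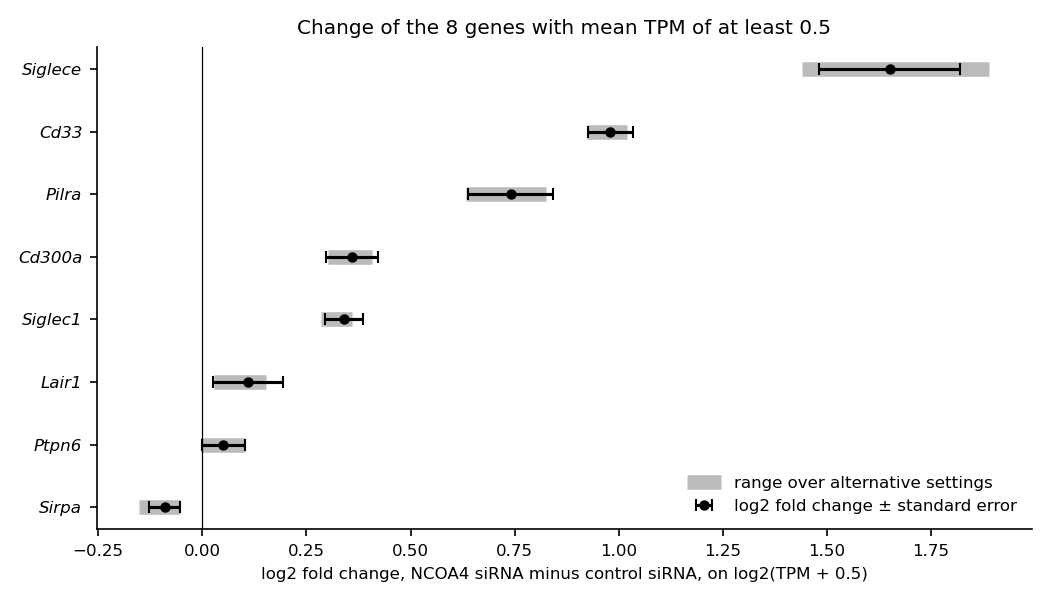
Log2 fold change (NCOA4 siRNA over control siRNA, on log2(TPM + 0.5)) of the 8 genes with a mean of at least 0.5 TPM, with standard errors as bars. Siglece lies farthest to the right at 1.65, then Cd33 at 0.98 and Pilra at 0.74, and Sirpa is the only one below 0, at -0.09.

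In control libraries the levels ran from Ptpn6 and Sirpa through Cd300a, Cd33, Siglec1, Pilra, Lair1 and Siglece down to Pirb. Neighbours in this order did not overlap between libraries except for Cd300a and Cd33. After NCOA4 silencing Cd33 was above Cd300a in every library, and Lair1 and Siglece, the least abundant genes before Pirb, overlapped. Sirpa, at 410 to 457 TPM, stood far above the other receptors in both groups.

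Pilra could be set beside its activating partners, which share its neighbourhood on chromosome 5. Pilrb1, an activating receptor that signals through Tyrobp, was at 2.58, 2.36 and 3.43 TPM in control and 8.89, 9.85 and 9.48 TPM in NCOA4 siRNA replicates. Its log2 fold change was 1.60 (SE 0.135, limma with Benjamini-Hochberg adjustment, adjusted p = 0.00234). Pilrb2 was at 1.51, 1.94 and 0.882 TPM in control and 5.19, 3.94 and 5.93 TPM in NCOA4 siRNA replicates. It changed by 1.53 (SE 0.245, limma adjusted p = 0.020), which did not pass 0.05 without NCOA4 siRNA replicate 1 (0.0903), 2 (0.054) or 3 (0.0898). Both partners rose, and inhibitory Pilra made up a smaller share of the 3 transcripts in each NCOA4 siRNA library, 61.3%, 61.9% and 57.4%, than in each control library, 76.4%, 77.2% and 71.9%. The summed level of the 3 genes was 17.2 ± 1.76 TPM in control and 36.3 ± 0.143 TPM in NCOA4 siRNA libraries (SD, n = 3). Of the 100-base windows of Pilrb1 and Pilrb2, 3.53% and 2.55% are shared with other genes. As Pilra was itself chosen with its values known, the share carries no test.

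**Figure D3:**
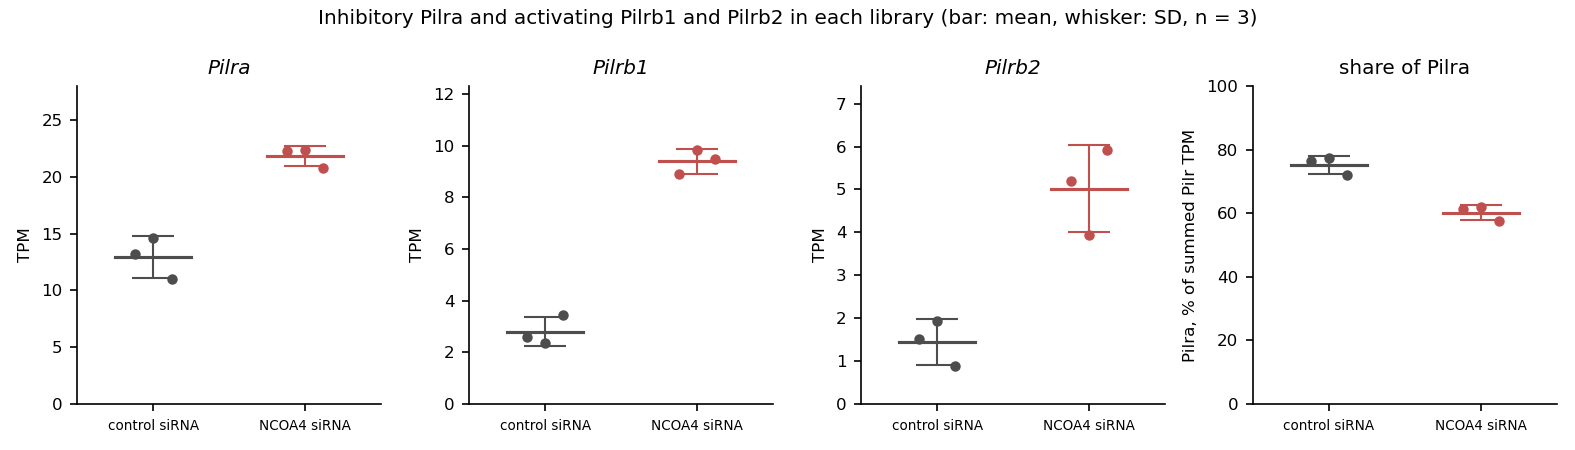
TPM of inhibitory Pilra and activating Pilrb1 and Pilrb2 in each library, with bars for group means and whiskers for SD (n = 3). All 3 genes are higher in each NCOA4 siRNA library, and the distance between groups relative to the control mean is largest for the Pilrb genes.

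The wider pathway was described with 130 further genes listed by function, of which 125 were named in the annotation and 82 were tested. These lists were drawn up with earlier results of these data known, so counts over them describe the choice and are no test. Their median log2 fold change was 0.08, and 18 (22.0%) had an adjusted p under 0.05 by limma, 16 higher and 2 lower, beside 5.42% of all genes. With the fold change above 1.5 as well, 8 of the 82 were called, each of them higher. Of all genes 1.18% were called, 0.861% higher and 0.318% lower. The 18 became 10 without control replicate 3 and 9, 8 and 7 without NCOA4 siRNA replicates 1, 2 and 3. Called genes numbered 6 without control replicate 3 and 6, 5 and 4 without those replicates. Of the 6 without NCOA4 siRNA replicate 1, 5 were among the 8.

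Among other Siglecs, Siglecf and Siglecg gave no read in any library. By counting error alone, the expected count could still be up to about 3 reads in each library. Siglec15, the 1 member of this list tested, had a log2 fold change of 0.03. Among 13 other inhibitory receptors tested, Clec4a2, a C-type lectin with an inhibitory motif, rose from 7.73 ± 0.819 to 15.7 ± 2.18 TPM (log2 fold change 0.98, SE 0.118, limma adjusted p = 0.00815) and Vsir, the checkpoint protein VISTA, rose from 109 ± 1.90 to 124 ± 2.91 TPM (0.18, limma adjusted p = 0.0407). Lilrb4a, an inhibitory leukocyte immunoglobulin-like receptor, fell from 71.1 ± 5.01 to 51.9 ± 3.21 TPM (-0.45, limma adjusted p = 0.018). That value is uncertain, since 34.7% of its windows are shared with Gm49339 and Lilr4b. The inhibitory Fc receptor Fcgr2b had a log2 fold change of -0.15 (limma adjusted p = 0.0822) and the lectin Clec12a 0.26 (0.127), and neither passed. The adjusted p was above 0.05 with single libraries left out for Lilrb4a (control replicate 3, 0.0588, and NCOA4 siRNA replicates 1, 0.0611, 2, 0.0751, and 3, 0.0706) and for Vsir (all but control replicate 1, 0.0616 to 0.171).

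Activating partners showed the highest median among the lists of 2 or more tested genes, 0.25 over 11 genes. As with the other lists, earlier results were known when these 11 were listed, so their counts are no test. Of these 11, 4 were called and 6 had an adjusted p under 0.05, all higher, beside 1.18% and 5.42% of all genes. Besides the Pilrb genes these were Cd300c2 and Cd300ld, activating relatives of Cd300a, Lilra5, an activating leukocyte immunoglobulin-like receptor, and the kinase Syk. Cd300c2 rose from 2.86 to 7.36 TPM (log2 fold change 1.26, SE 0.239, limma adjusted p = 0.0318), Cd300ld from 19.8 to 27.0 TPM (0.44, SE 0.0758, 0.0248) and Lilra5 from 2.66 to 5.02 TPM (0.82, SE 0.155, 0.0314). Syk, which binds activating motifs, differed by 0.25 (limma adjusted p = 0.0439). These 4 are less firm than Pilrb1: the adjusted p was above 0.05 for Cd300c2 without any library but control replicate 2 (0.061 to 0.131), for Cd300ld and Syk without any but control replicate 1 (0.057 to 0.0985 and 0.0719 to 0.166), and for Lilra5 without control replicate 3 (0.0812) or NCOA4 siRNA replicate 1 (0.116), 2 (0.122) or 3 (0.121). Cd300lb, a more abundant relative of Cd300a at 83.9 TPM in control and 94.3 TPM in NCOA4 siRNA libraries, did not pass (0.17, limma adjusted p = 0.0947). The adaptors did not pass either, Tyrobp with a log2 fold change of 0.20 (limma adjusted p = 0.0858) and Fcer1g with 0.00 (0.993), the sign of the latter depending on the scaling.

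Of 11 ligand genes tested, the complement chains that form C1q, a ligand of Lair1, rose: C1qa by 0.74 (SE 0.058), C1qc by 0.70 (SE 0.0561) and C1qb by 0.41 (SE 0.0551) in log2 fold change, with limma adjusted p = 0.00216, 0.00228 and 0.0116. C1qb had an adjusted p above 0.05 without NCOA4 siRNA replicate 2 (0.0653) or 3 (0.0647). Angptl2, a secreted ligand of Pirb, fell from 39.0 ± 0.589 to 28.7 ± 1.34 TPM (-0.44, SE 0.0494, limma adjusted p = 0.00686). Cd47, the ligand of Sirpa, had a log2 fold change of 0.21 (limma adjusted p = 0.13) and did not pass. Cd200 gave 1 read over all 6 libraries.

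The enzymes that act on the motif were read out in the same way. Lyn, a Src family kinase at 155 ± 5.88 TPM in control and 162 ± 3.62 TPM in NCOA4 siRNA libraries (SD, n = 3), did not pass (log2 fold change 0.06, limma adjusted p = 0.446). Of 20 phosphatases and inhibitory adaptors, 2 (10%) passed, beside 5.42% of all genes, and neither reached the fold of 1.5. They were the receptor phosphatase Ptprj (0.44, SE 0.0522, limma adjusted p = 0.00776) and Inpp5d (0.20, 0.0434). Inpp5d was above 0.05 in adjusted p without control replicate 3 (0.106) or NCOA4 siRNA replicate 1 (0.172), 2 (0.154) or 3 (0.147). Ptpn11 had a log2 fold change of 0.09 (limma adjusted p = 0.414).

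Siglec ligands are built by sialic acid enzymes, and the 21 such genes that were tested had a median of 0.03 in log2 fold change. St6gal1, which places sialic acid on the galactose ends of N-glycans, was at 26.5, 26.1 and 25.1 TPM in control and 37.9, 39.8 and 39.4 TPM in NCOA4 siRNA replicates. It rose by 0.58 (SE 0.046, limma adjusted p = 0.00216), just under the fold threshold, and kept an adjusted p under 0.05 without any single library. It overlaps BC106179 on the other strand. St6galnac6, which adds sialic acid to N-acetylgalactosamine, changed by 0.28 (limma adjusted p = 0.0348) and was above 0.05 in adjusted p without any library but control replicate 1 (0.0616 to 0.143). Gne, which makes the sialic acid precursor, Cmas, which activates sialic acid, and the sialidase Neu1 had log2 fold changes of 0.03, 0.02 and 0.05 (limma adjusted p = 0.859, 0.881 and 0.645), with signs that depended on the scaling.

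**Figure D4:**
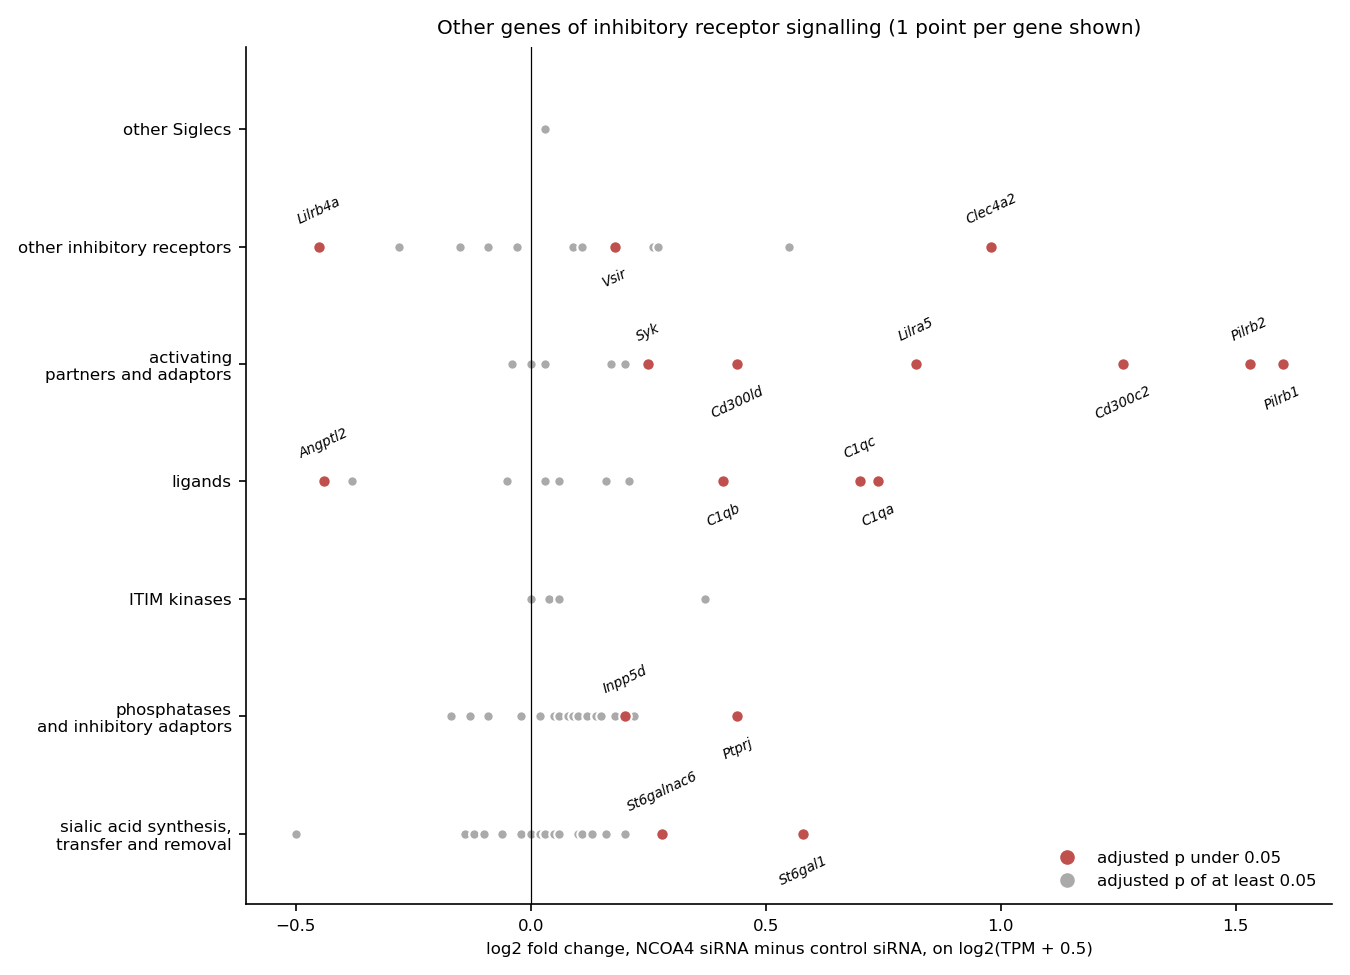
Log2 fold change (NCOA4 siRNA over control siRNA) of tested genes in 7 lists of related genes, with the lists as rows, 1 point per gene and genes at an adjusted p under 0.05 in colour. Activating partners lie mostly to the right of 0 (10 of 11), while sialic acid genes and phosphatases gather near 0.

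The receptors lie in gene clusters, and tested genes within 200 kb of any member were read out after the values had been seen. Of 68 such neighbours, 10 (14.7%) had an adjusted p under 0.05 by limma, 7 higher and 3 lower, beside 5.42% of all genes. Zfp658, a zinc finger gene between Cd33 and Siglece at chr7:43562256-43575461, rose from 5.63 to 11.5 TPM (log2 fold change 0.97, SE 0.0874, limma adjusted p = 0.00309, and 0.00402 to 0.0297 with single libraries left out). Near Cd300a, Cd300ld3 was at 0.415 TPM in control and 1.62 TPM in NCOA4 siRNA libraries. It reached the minimum of 0.5 TPM only through the group where it was high, so its place among the 10 is no support, and 9 had both group means above the minimum. The other higher neighbours were Pilrb1, Pilrb2, Cd300c2, Cd300ld and Lilra5, all of them already counted among the activating partners. The lower ones were Eno2, Tpi1 and Usp5, near Ptpn6. Tpi1 did not pass without NCOA4 siRNA replicate 1, 2 or 3 (0.0887 to 0.1), and neither Eno2 (0.0694 to 0.138) nor Usp5 (0.0784 to 0.154) passed without any library but control replicate 1. Close relatives in a cluster share sequence, so these counts do not stand for independent genes.

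**Figure D5:**
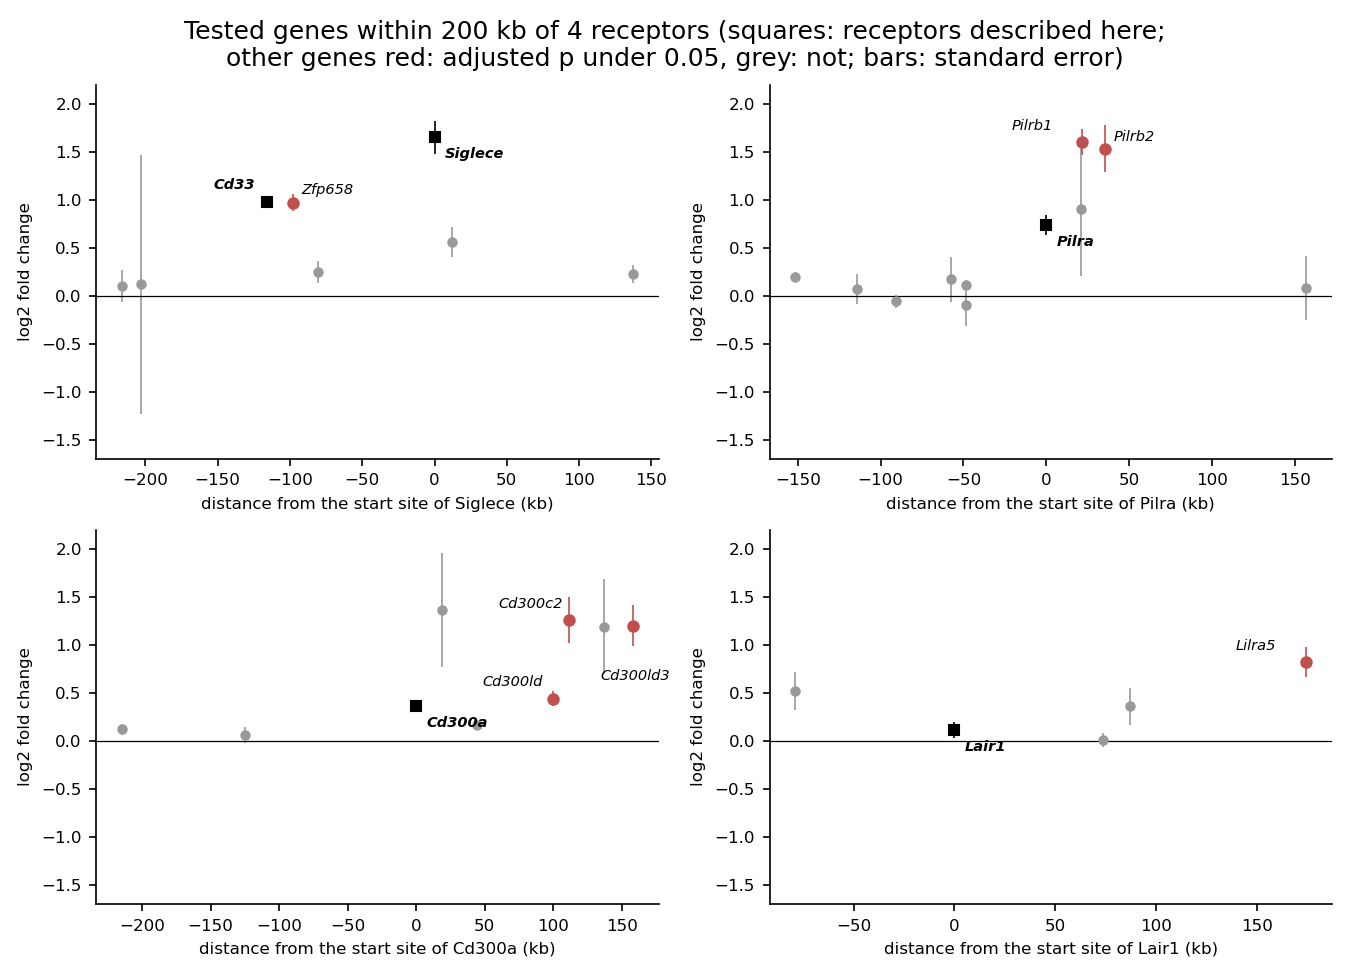
Log2 fold change with standard error of tested genes against the distance of their start site from that of Siglece, Pilra, Cd300a or Lair1, in kb. Zfp658 lies between Cd33 and Siglece at 0.97. Pilrb1 and Pilrb2 are higher beside Pilra, and Cd300c2, Cd300ld and Cd300ld3 beside Cd300a. Cd300lb (0.17) and Cd300ld4 (1.19), also beside Cd300a, did not pass, and most other neighbours lie near 0.

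The genes whose pattern was most like that of Siglece over the 6 libraries were Anxa3 (Pearson r = 0.9982), Sema4a (0.9980) and Dcaf8 (0.9972), among 10038 genes with a mean of at least 5 TPM. Their log2 fold changes were 0.19, 0.66 and 0.17, beside 1.65 for Siglece. For Cd33 the genes most alike included Hacd4 (0.9981) and Irak1 (0.9979). Because the libraries form 2 groups of 3, any gene that differs cleanly between the groups scores high, and 311 and 327 genes exceeded 0.95. Hacd4 was at 4.56 ± 0.198 TPM in control and 9.39 ± 0.349 TPM in NCOA4 siRNA libraries (SD, n = 3), a log2 fold change of 0.97 beside 0.98 for Cd33. The log2 fold change of Irak1 was 0.27, so a high correlation does not mean a change of like size.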

How the data were processed

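The authors deposited 1 file per library with TPM for each Ensembl mouse gene. The authors' processing notes in GEO name Trimmomatic 0.33, FastQC, HISAT2 2.1.0, featureCounts, edgeR and mm10. The annotation release and the strand and multi-mapping settings are not given in the sources used here. GENCODE M21 named 55227 of 55487 IDs. TPM steps gave whole reads (within 0.05 read) in all libraries for 98.5% of the 21096 genes above 0, and these reads give the depth. Limits from reads cover counting error only.

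The authors tested counts with edgeR. Because the files hold TPM, limma 3.58.1 (R 4.3.3, with trend) was fitted to log2(TPM + 0.5) over 13829 genes with a mean of at least 0.5 TPM, 3 against 3 libraries, with Benjamini-Hochberg adjustment. Genes past both an adjusted p of 0.05 and a fold of 1.5 were called. The fit was tested on simulated reads in which only well-expressed genes were changed, so that test does not cover low genes such as Siglece. The members and lists were chosen with earlier results of these data known. Named were all members, Ncoa4, up to 6 passing and all called genes of each list, a fixed set of pathway genes, and the 3 genes most correlated with Siglece and with Cd33. Of these, 2 genes are not reported here, and counts over lists include them. Inhibitory motifs were sought in translated GENCODE M21 coding sequences on GRCm38, and sequence sharing was counted in 100-base windows of annotated transcripts. Alternatives were pseudocounts of 1 and 0.1, other filters, median and quantile scaling, limma-voom on the rebuilt reads, a replicate block, and each library left out.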

Additional observations from a re-analysis of the deposited data

How the results depend on the processing

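The count of called genes was 163 and ranged from 93 to 173 with single libraries left out (93, 95 and 98 without NCOA4 siRNA replicates 1, 2 and 3), and it was 87 with a replicate block. Companion genes with an adjusted p under 0.05 numbered 18, between 7 and 18 with single libraries left out, and 5 with the block. Clec4a2, Angptl2 and Ptprj passed with any single library left out. With the block they did not (limma adjusted p = 0.0532, 0.0502 and 0.0583). Correlations of deviations between control and NCOA4 siRNA libraries lay between -0.0412 and 0.0283, with 0.0283, -0.0185 and 0.0229 for same-numbered libraries. They give no sign of pairing but cannot tell whether same-numbered replicates were prepared in parallel. At an adjusted p under 0.05, 750 genes passed by limma on TPM, 1420 by limma-voom on rebuilt reads, 499 with no filter and 161 with the block. Signs reversed for Fcer1g (-0.0567 with median centring, -0.0252 with voom, -0.0311 to 0.0259 with single libraries left out), Gne (-0.0318 with median centring, -0.0236 with quantile scaling, -0.0223 to 0.0584 with single libraries left out), Cmas (-0.0429 with median centring, -0.0119 with voom, -0.0213 to 0.0376 left out singly) and Neu1 (-0.00479 with median centring, -0.00282 to 0.09 left out singly), none of which passed, and Ptpn6 went from 0.05 to -0.00407 with median centring. The cause was not tested. Called companions numbered 8, and 3 with the block, and the 5 members with an adjusted p under 0.05 became 3. Depth limits Siglece, Pilrb1, Pilrb2, Cd300c2 and Lilra5, which rest on under 100 reads in at least 1 library, and Pirb, which has at most 4.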

Other observations

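Among the sialic acid receptors too low for the fit, Siglech, a Siglec of plasmacytoid dendritic cells and some macrophages, gave 1, 2 and 0 reads in control and 2, 7 and 5 reads in NCOA4 siRNA libraries. Cd22, the Siglec of B cells, gave 10, 8 and 3 reads in control and 17, 8 and 9 reads in NCOA4 siRNA libraries. At these numbers no difference is claimed for either gene.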
